A study of Homo sapiens with 8 samples.

Results

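Chromatin accessibility was followed around 7 genes of pluripotent stem cells, namely LIN28A, LIN28B, DPPA2, DPPA4, DNMT3B, L1TD1 and TERT. Their products act on RNA, chromatin, DNA methylation or telomeres. All peaks that overlapped the span of one of these genes, or the 50 kb on either side of it, were taken from the 8 peak lists and merged where they overlapped. This gave 112 of the 285909 merged regions of the genome, with 18 regions in the LIN28A window, 23 at LIN28B, 16 at DPPA2, 18 at DPPA4, 22 at DNMT3B, 15 at L1TD1 and 15 at TERT. DPPA2 and DPPA4 lie next to each other, and 15 regions belong to both of their windows.

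ATAC-seq, in which a transposase cuts and tags open DNA, was performed on RUES2, a line of human embryonic stem cells, at 4 stages with 2 replicate libraries each. The hESC libraries were taken at day 0, after 1 day in medium with the Wnt pathway activator CHIR-99021 and before the medium was changed, so they stand for stem cells already primed for differentiation. The MES (mesoderm) libraries were taken at day 2, after a further 48 h with CHIR-99021. The CP (cardiac progenitor) libraries were taken at day 5, after the Wnt inhibitor Xav-939 had been added at day 3, and the CM (cardiomyocyte) libraries at day 14, in medium with B27 supplement. All 8 libraries come from this 1 line. The replicates are labelled as biological ones, and no batch is named for the libraries.

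Each library's list held between 55777 (CM replicate 2) and 156179 peaks (MES replicate 2) on chromosomes 1 to 22 and X, so that a region missing from CM replicate 2 had a shorter list to be missing from. Among promoters that mark the stages, NANOG had folds of 5.73, 4.47, 4.58 and 4.68 in the hESC and MES libraries and no peak in the CP and CM libraries, and TTN was higher in CM than in hESC by 1.58 on the log2 scale. The CM gene MYH6 had no peak in hESC or MES, 4.18 in CP replicate 2 and 4.28 and 5.19 in CM. It was higher in CM than in hESC by 1.04 on the log2 scale (limma, adjusted p = 0.0037). The CM gene NPPA had a peak in CM replicate 1 only and was not tested. Some markers did not follow their label. The stem cell genes SOX2 and ZFP42 and the CM gene ACTN2 had a peak in all 8 libraries, with differences between CM and hESC of 0.52, −0.09 and −0.19 that did not pass the test. Against its label as a CM marker, TNNT2 had a promoter peak in the 6 hESC, MES and CP libraries and in neither CM library, and POU5F1 had no promoter region. The MES markers TBXT, MIXL1, EOMES and MESP1 and the CP markers ISL1, NKX2-5 and HAND1 had a peak in all 8 libraries, and the CP marker GATA4 in 7. None of these MES and CP markers changed by fold in any comparison of stages. Of the markers of other cells, ACTA2 (smooth muscle or fibroblast) had a promoter peak in the CP and CM libraries only, with CM folds of 7.32 and 5.96. PECAM1 had a peak in 1 MES library and CDH5 in none, while COL1A1, the neural SOX1 and the endoderm gene SOX17 had peaks in all 8 libraries. The neural PAX6 and the endoderm gene FOXA2 had a peak in 7. PAX6 was higher in CM than in CP by 0.69 on the log2 scale (limma, adjusted p = 0.049). The part that other cells had in the values below was not tested.

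LIN28A and LIN28B are RNA-binding proteins that block the maturation of the let-7 microRNAs, which otherwise promote differentiation. DPPA2 and DPPA4 are nuclear partner proteins of the early embryo and of germ cells that bind chromatin, DNMT3B is a de novo DNA methyltransferase, L1TD1 is an RNA-binding protein derived from a LINE-1 retrotransposon, and TERT is the catalytic subunit of telomerase. All are known as genes that are active in pluripotent cells and are turned down or off in most differentiated tissues. Accessibility of a promoter is not a measure of transcription, and no RNA value was used here.

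A promoter region is here a region within 500 bp of the start of the gene's canonical transcript. The value of a region in a library is its fold, the number of tags piled up at the peak summit over the local background as the peak caller gives it, with 1 added to both. By fold, the promoters of DPPA2, DPPA4 and L1TD1 were lower in CM than in hESC, and those of LIN28A, LIN28B, DNMT3B and TERT did not pass the test. The share of lower promoters was 3 of 7, where 3.48% of the 13905 tested promoters of protein-coding genes were lower in CM, and none of the 7 was higher, where 3.75% of promoters were (limma; none also at an unadjusted p below 0.05). DPPA2, DPPA4 and LIN28B had a peak in both hESC libraries and in neither CM library, a pattern held by 3.4% of all promoters with a region, and none had the opposite pattern, held by 0.539%. None of the 7 changed between hESC and MES, where 0.877% of promoters were lower and 0.554% higher, and none was higher in CP than in MES or in CM than in CP, where 0.475% and 0.439% were. At an unadjusted p below 0.05 these counts were 0 as well. LIN28A, DNMT3B and TERT had a promoter peak in all 8 libraries, as had 81.8% of all promoters.

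**Figure D1:**
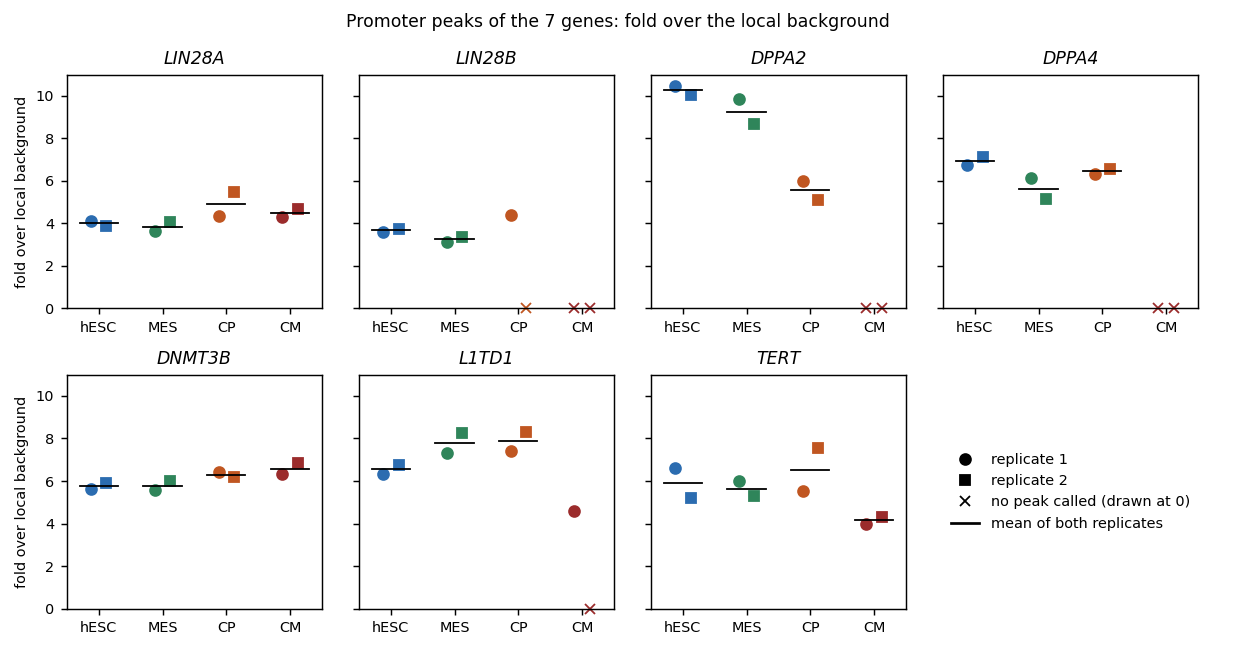
Fold over the local background (vertical axis, from 0) of the promoter region of each gene in the 8 libraries by stage, with circles for replicate 1, squares for replicate 2 and lines for the mean of both. Crosses at 0 mark libraries with no called peak, which are the CM libraries of LIN28B, DPPA2 and DPPA4, CP replicate 2 at LIN28B and CM replicate 2 at L1TD1.

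The 200 bases before the start of 3 of these promoters are shown, because these are the promoters that were lower in CM by fold. They were read from GRCh38 on the strand of the gene, 5′ to 3′, and end just before the first transcribed base. Capitals mark matches, on either strand, to a GATA motif (AGATAA), a SOX motif (ACAAAG), an SP1 box (GGGCGG), an E-box (CACGTG), an octamer (ATGCAAAT) or CTCF. The DPPA2 stretch lies at chr3:109316518-109316717, DPPA4 at chr3:109337547-109337746 and L1TD1 at chr1:62194649-62194848.
DPPA2 promoter: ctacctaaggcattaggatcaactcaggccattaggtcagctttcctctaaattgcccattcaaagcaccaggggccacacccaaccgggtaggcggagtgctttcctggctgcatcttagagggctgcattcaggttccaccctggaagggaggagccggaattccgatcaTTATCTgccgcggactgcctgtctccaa
DPPA4 promoter: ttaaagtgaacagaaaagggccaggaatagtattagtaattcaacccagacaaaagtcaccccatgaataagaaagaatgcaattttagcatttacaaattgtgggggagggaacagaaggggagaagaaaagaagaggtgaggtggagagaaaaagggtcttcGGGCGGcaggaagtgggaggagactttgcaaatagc
L1TD1 promoter: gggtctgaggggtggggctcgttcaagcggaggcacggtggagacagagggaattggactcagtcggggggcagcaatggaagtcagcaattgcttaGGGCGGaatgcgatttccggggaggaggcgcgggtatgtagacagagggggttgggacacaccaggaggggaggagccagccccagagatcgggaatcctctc

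These promoters differed in base composition. The DPPA4 stretch had 43.5% G and C with 2 CG dinucleotides, where the median over 19970 protein-coding genes was 64.5% with 15. DPPA2 had 55% with 6, L1TD1 62.5% with 10, LIN28A 62.5% with 9, LIN28B 39% with 4 and TERT 78% with 22. The SP1 box, a GC-rich promoter element, was found at 1 position each before DPPA4 and L1TD1, and 56.3% of all promoters held it in the same 200 bases. The DPPA2 stretch held a GATA motif at base 173 from its 5′ end and no SP1 box, and 4.78% of all promoters held a GATA motif. The SOX motif, the E-box, the octamer and the CTCF motif were in none of the 3 stretches and in 8.02%, 6.93%, 1.24% and 2.73% of all promoters. In the 200 bases around the summit, a different stretch, the DPPA2 and L1TD1 promoter regions held a SOX motif and the DPPA4 region did not. Of all merged regions 14.6% held one there.

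The DPPA2 promoter, at chr3:109316149-109316784, had the highest fold of the 7 promoters in hESC and lost its peak in steps. Its fold was 10.5 and 10.0 in the hESC libraries, 9.83 and 8.65 in MES, 5.98 and 5.11 in CP, and no peak was called in either CM library. Both CP libraries lay below all hESC and MES libraries. The decrease from MES to CP was −0.74 ± 0.22 on the log2 scale (SE; adjusted p = 0.043), and 0.654% of promoters were lower in that comparison. CM differed from CP by −0.83 ± 0.22 (adjusted p = 0.044) and from hESC by −1.81 ± 0.22 (adjusted p = 0.00068). Where a library had no peak, the 1st percentile of its folds was entered, so these last differences depend on that value. The smallest fold called over the lowest background was 2.87 in CM replicate 1 and 3.11 in CM replicate 2, which is how far above background a peak had to stand to be listed there. With 1 library left out, the CM against hESC difference ran from −1.84 to −1.71 and kept its call each time. The MES-to-CP call was lost without hESC replicate 1 or 2, MES replicate 1 or 2 or CP replicate 2 (adjusted p up to 0.25), and the CP-to-CM call without any library other than CP replicate 2 (up to 0.19).

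The DPPA4 promoter, at chr3:109337404-109337962, kept its peak through CP. Its folds were 6.76 and 7.12 in hESC, 6.13 and 5.12 in MES and 6.33 and 6.55 in CP, with no peak in CM. The 6 libraries before CM thus lay within a narrow range, and the difference between CP and MES was 0.20 ± 0.23 (adjusted p = 0.66). The difference was −1.05 ± 0.23 (adjusted p = 0.017) for CM against CP, where 0.604% of promoters were lower, and −1.24 ± 0.23 (adjusted p = 0.0031) for CM against hESC. The call against hESC was kept with each library left out, and the call against CP was lost without CP replicate 1 or either CM library (adjusted p up to 0.071). The MES-to-CP decrease passed the test at DPPA2 and not at DPPA4, and the difference between the genes was not tested.

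The L1TD1 promoter, at chr1:62194456-62195322, also kept its peak through CP. Its folds were 6.34 and 6.75 in hESC, 7.30 and 8.27 in MES and 7.42 and 8.31 in CP, then 4.59 in CM replicate 1, and CM replicate 2 had no peak. The CM value was below all 6 earlier libraries. CM differed from hESC by −0.71 ± 0.24 (adjusted p = 0.045) and from CP by −0.88 ± 0.24 (adjusted p = 0.047). The call against hESC was lost without CM replicate 2, where the difference was −0.27 (adjusted p = 0.43), and without either hESC or either MES library, and the call against CP was lost without any library other than CM replicate 1 (adjusted p up to 0.32).

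The LIN28B promoter, at chr6:104956967-104957736, had low folds of 3.59 and 3.75 in hESC, 3.14 and 3.34 in MES, with one CP peak of 4.40 in replicate 1, and no peak in the other 3 libraries. Its local background was 4.04 and 3.08 times the lowest of the library in hESC, and the difference between CM and hESC by fold was −0.32 ± 0.28 (adjusted p = 0.40). A further LIN28B region at chr6:104940249-104941719, which lies over other annotated starts of the gene at −16.5 kb (before the canonical start), had folds between 6.92 and 7.50 in all 8 libraries. LIN28B therefore had a start region that was called at every stage beside the one that lost its peak.

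The LIN28A promoter, at chr1:26410011-26412035, had folds of 4.12 and 3.88 in hESC, 3.63 and 4.05 in MES and 4.36 and 5.48 in CP, then 4.32 and 4.67 in CM. The summit of its highest peak lay at −181 to −110 bp from the start in the 4 hESC and MES libraries and at −589 to −556 bp in the 4 CP and CM libraries. The 2 sets of positions did not overlap, and how many other promoters separate in this way was not counted. Further out, a region at −1.4 kb (chr1:26409320-26409844) had folds of 2.00 in hESC replicate 1, 2.17 and 2.22 in MES and 2.72 and 4.38 in CP, then 3.59 and 3.18 in CM, and hESC replicate 2 had no peak. It was higher in CM than in hESC by 0.75 ± 0.15 (adjusted p = 0.0042) and in CP than in MES by 0.65 ± 0.15 (adjusted p = 0.013), the latter not without MES replicate 2 or CP replicate 2 (adjusted p up to 0.076). With peaks trimmed to 200 bp around their summits, which separates the near and far summits, the value at the far summit was higher in CM by 0.98 (adjusted p = 0.0083). The hESC summits given above lie outside that trimmed region. The 0.98 is therefore against the values entered for hESC and leaves out the hESC promoter peak. For the whole region the difference was 0.29 ± 0.24 (adjusted p = 0.37).

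The DNMT3B promoter, at chr20:32761692-32763565, had a peak at every stage, with folds of 5.63 and 5.93 in hESC, 5.58 and 5.98 in MES and 6.42 and 6.17 in CP, then 6.33 and 6.83 in CM. CM differed from hESC by 0.31 ± 0.20 (adjusted p = 0.26). The TERT promoter, at chr5:1294059-1295815, also had a peak in every library. Its folds were 6.60 and 5.22 in hESC, 6.01 and 5.28 in MES and 5.55 and 7.53 in CP, then 3.96 and 4.33 in CM. Each CM library lay below the other 6, and the difference between CM and hESC was −0.38 ± 0.22 (adjusted p = 0.23).

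The local background against which a fold is taken is itself raised where a wide stretch is open. At the LIN28A promoter it was 6.42 and 5.47 times the lowest background of the library in hESC and 3.83 and 4.33 times in CM, and at DNMT3B 5.63 and 4.83 times in hESC and 3.37 and 3.41 times in CM. The pileup was therefore also divided by the lowest background of the library, a measure that was chosen after the values had been seen. On this scale 5 of the 7 promoters were lower in CM than in hESC, where 6.95% of all tested promoters were, and none was higher, where 13.1% were. Where a library had no peak, the 1st percentile of its own values was entered, which was 3.72 times the lowest background for CM replicate 1 and 4.73 times for CM replicate 2. Of these 5 promoters 1 (TERT) had a peak in both CM libraries, 1 (L1TD1) in 1 of them and 3 in neither, so that the differences of the last 3 are from an entered value. An uncalled region on a raised local background can lie above that value.

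Before scaling between libraries, both CM libraries had the lowest pileup levels at LIN28A and DNMT3B as well as at TERT. The TERT promoter had levels of 23.3 and 19.1 in hESC and 21.6 and 18.5 in MES. Its levels were 19.3 and 23.3 in CP, then 11.8 in each CM library. The difference between CM and hESC was −0.57 ± 0.20 on the log2 scale (adjusted p = 0.040), and it was −0.40 (adjusted p = 0.25) without CM replicate 2, where the lone CM library is assumed to vary like the other stages. The pileup itself was 54 tags in CM replicate 1 (exact 95% Poisson interval 40.6 to 70.5) and 30 in CM replicate 2 (20.2 to 42.8), against 73 (57.2 to 91.8) and 88 (70.6 to 108) in hESC. These intervals cover counting error only.

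L1TD1 decreased in CM on this scale by more than by fold. Its levels were 27.1 and 26.4 in hESC, 26.6 and 32.0 in MES and 19.6 and 21.5 in CP, then 7.87 in CM replicate 1, and the difference between CM and hESC was −1.87 ± 0.25 (adjusted p = 0.00014). The difference was −1.33 without CM replicate 2, which leaves the library with a peak. Against the entered values of CM the differences were −1.44 at LIN28B, −2.01 ± 0.29 at DPPA2 (adjusted p = 0.00022) and −1.68 ± 0.24 at DPPA4 (adjusted p = 0.00023). At DPPA2 the pileup fell from 22.7 and 18.2 in hESC to 16.9 and 15.8 in MES and 7.34 and 6.35 in CP, with a difference of −1.22 ± 0.29 between CP and MES (adjusted p = 0.0093). LIN28A and DNMT3B turned in sign, to −0.08 ± 0.15 (adjusted p = 0.71) and −0.12 ± 0.14 (adjusted p = 0.52), and passed the test by neither measure.

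Beyond the promoters, the windows as a whole followed the genome by fold. Of the 112 regions, 59 had a peak in both libraries of at least 1 stage and were tested. A region with both peaks at 1 stage only passed this filter through that stage, which favours a difference in that direction. Of these, 13 were lower in CM than in hESC, or 22%, where 22.4% of all 131956 tested regions were lower, and 2 were higher, or 3.39%, where 8.03% were. The median difference was −0.33 over the 59 regions and −0.15 over all tested regions. With CM replicate 2 left out, 5 regions were lower, or 8.47%, where 9.64% of all tested regions were, and without CM replicate 1 it was 6, or 10.2%, where 9.71% were. By pileup 19 of 59 were lower, where 15.3% of all tested regions were, 13 of them with no peak in either CM library, and 7 regions were lower by both measures.

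Peaks in both hESC libraries and in neither CM library were found at 24 of the 112 regions, where 13.5% of all merged regions showed this. The count was 5 in each of the DPPA2, DPPA4 and L1TD1 windows, 4 at LIN28A, 4 at LIN28B, 3 at DNMT3B and 2 at TERT. A peak in both hESC libraries and in no other library was found at 4 regions, where 3.01% of all regions had one. In the opposite direction, 1 region had a peak in both CM libraries and in neither hESC library, where 3.15% did. Peaks in all 8 libraries were found at 14 regions, where 9.83% were, and 42 regions, or 37.5%, had a peak in 1 library only, where 40.7% of all regions had. By position, 14 of the 112 regions lay at promoters, 8 over exons, 49 in introns, 10 in lncRNA genes and 31 between genes.

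**Figure D2:**
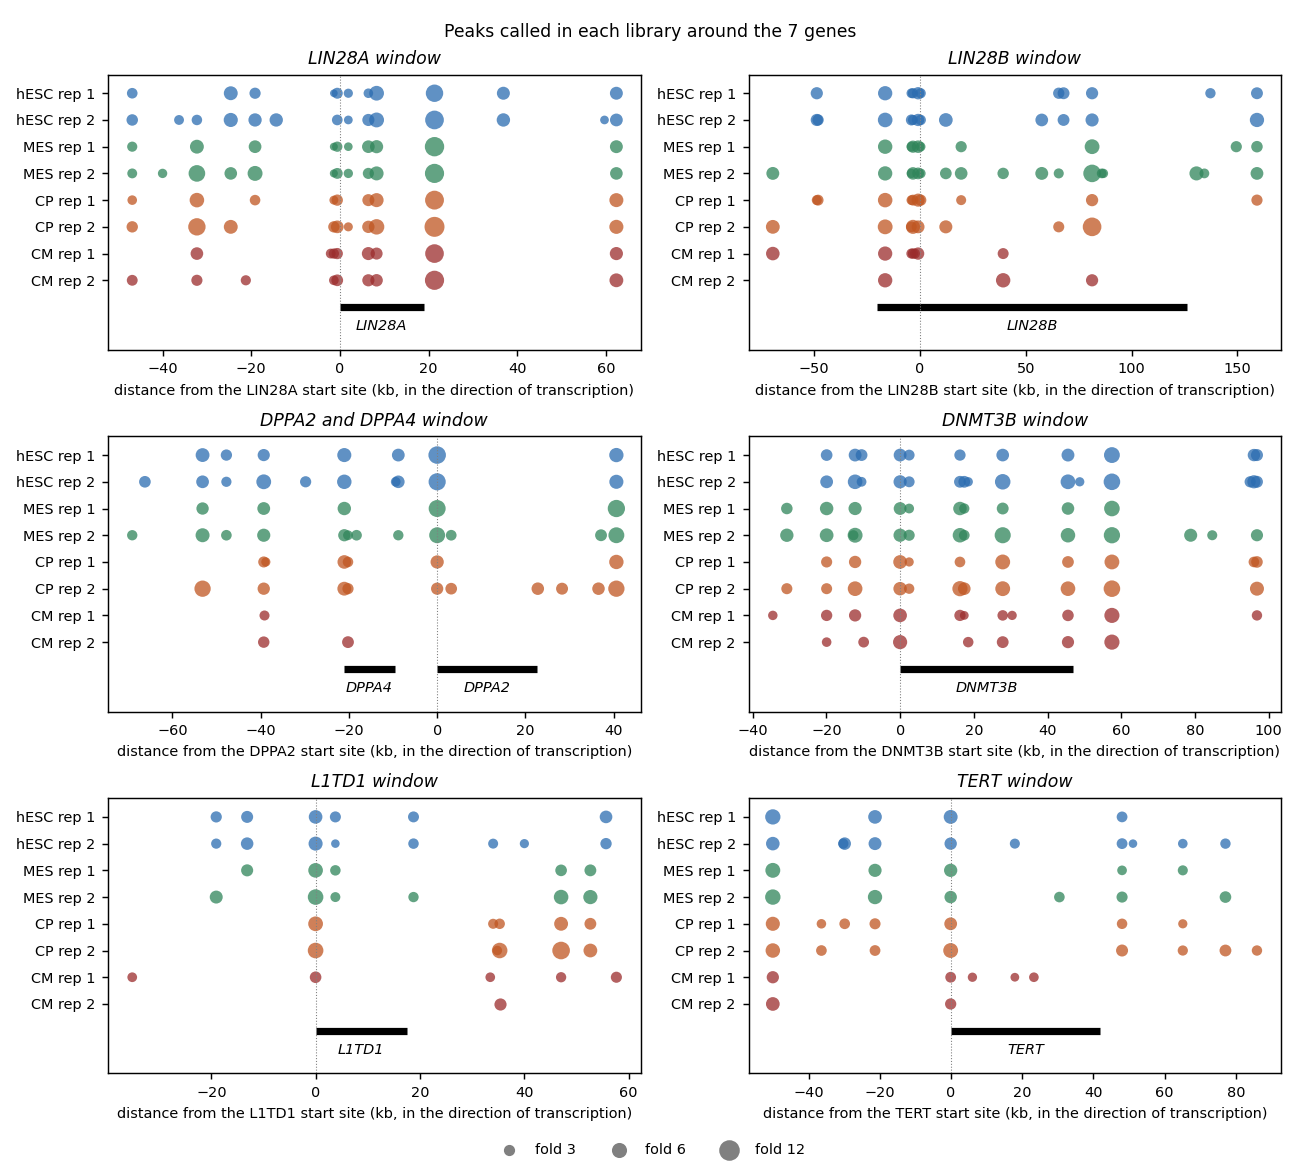
Peaks called in the 8 libraries (rows) by distance from the start of the named gene in kb (horizontal axis), with the area of each dot in proportion to the fold and black bars for the genes. In the DPPA2 and DPPA4 window the CM rows hold 1 and 2 peaks near DPPA4 and none at DPPA2.

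The DPPA2 window held 6 and 8 regions with a peak in the hESC libraries, 4 and 10 in the MES libraries, 6 and 9 at the CP stage and 1 and 2 in CM. These were 37.5% and 50% of its 16 regions for hESC and 6.25% and 12.5% for CM, where 34.5% and 53.1% of all merged regions had a peak in the hESC libraries and 31.2% and 18.6% in those of CM. Of its 7 tested regions 4 were lower in CM than in hESC, where 22.4% of all tested regions were, and none was higher, where 8.03% were (limma; 1 of the 7 higher at an unadjusted p below 0.05). The region 40.6 kb downstream of the DPPA2 start, between genes at chr3:109275764-109276088, had folds of 6.97 and 6.76 in hESC, 10.2 and 8.60 in MES and 7.05 and 9.06 in CP, with no peak in CM. It was thus present in the 6 libraries before CM, and the difference was −1.36 ± 0.20 (adjusted p = 0.0022) for CM against CP and −1.23 ± 0.20 (adjusted p = 0.0016) for CM against hESC. By pileup the latter was −0.75 ± 0.29 (adjusted p = 0.064).

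A region between DPPA2 and DPPA4, at −8.8 kb from the DPPA2 start (chr3:109324792-109325513), lost its peak earlier. It had folds of 5.57 and 5.43 in hESC and 3.65 in MES replicate 2 and no peak in the other 5 libraries, so it was tested only through its hESC peaks. The difference between MES and hESC was −0.94 ± 0.22 (adjusted p = 0.0093), where 10.8% of all tested regions were lower. Without MES replicate 1 that difference was −0.73 (adjusted p = 0.10). A region at −18.3 kb from the DPPA4 start, in the lncRNA gene ENSG00000289358 (chr3:109355606-109357085), kept a peak in all 8 libraries. Its pileup was 17.2 and 18.2 in hESC, 11.7 and 12.7 in MES and 6.8 and 8.5 in CP, then 4.2 and 7.1 in CM, so that no hESC or MES library overlapped with CP or CM. How many other regions separate in this way was not counted. The difference between CM and hESC was −1.44 ± 0.28 (adjusted p = 0.0015) by pileup and −0.53 ± 0.25 (adjusted p = 0.13) by fold. An octamer motif, the site of POU factors, was found within 100 bp of the summit of hESC replicate 2, and 1.65% of all regions held one. That summit lay at −18264 bp and that of MES replicate 2 at −18231 bp, while those of the other 6 libraries lay at −18789 to −18457 bp.

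**Figure D3:**
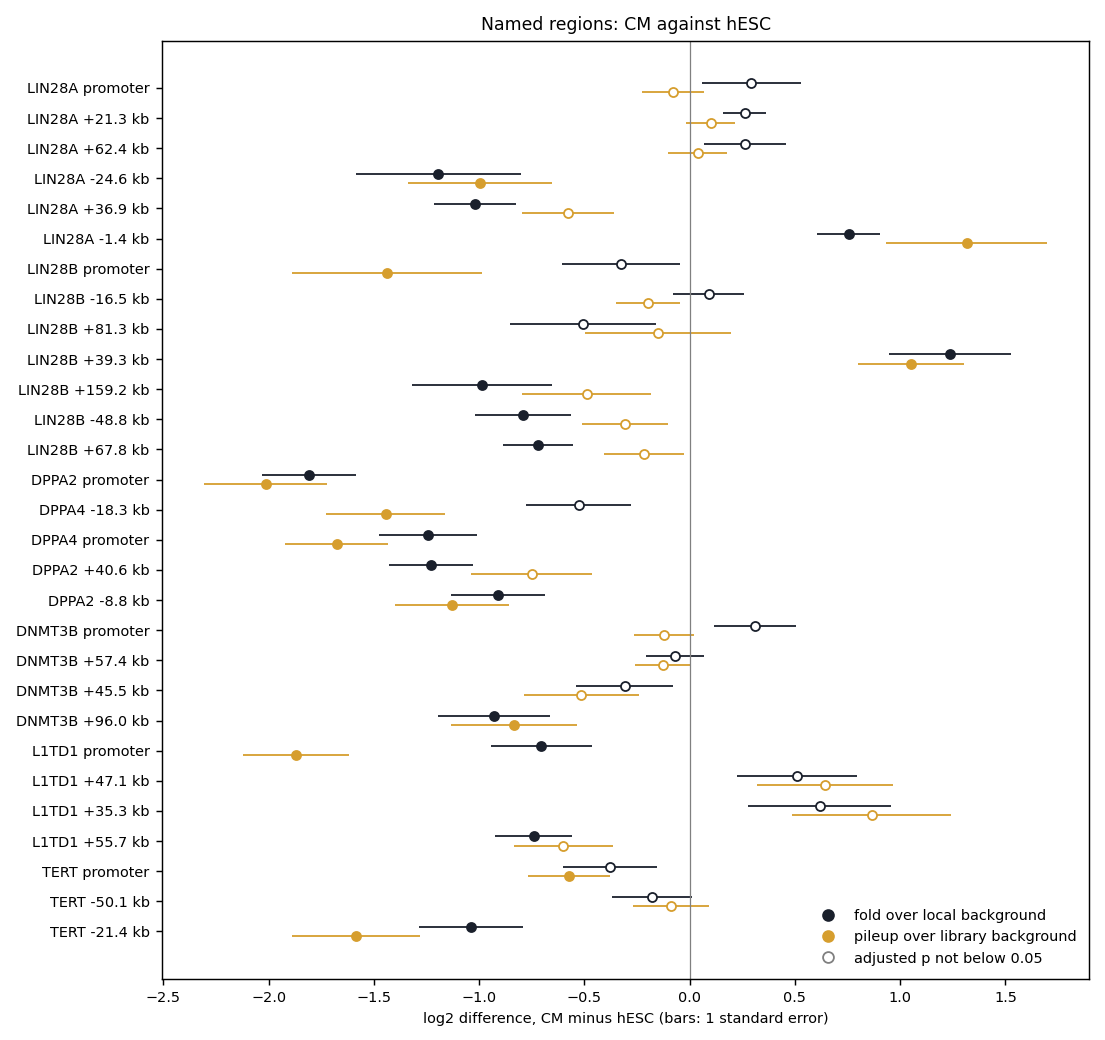
Log2 difference of CM minus hESC (horizontal axis, bars of 1 standard error) for the tested promoters and other named regions, by fold over the local background in black and by pileup over the library background in yellow, with open circles where the adjusted p was not below 0.05. Regions with no CM peak are drawn with the entered values. DPPA2 and DPPA4 promoters lie left of −1 by both measures, and LIN28B +39.3 kb and LIN28A −1.4 kb lie to the right of 0.

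At TERT, the region at −21.4 kb from the start, between TERT and CLPTM1L at chr5:1316051-1316793, had folds of 6.35 and 5.69 in hESC, 5.92 and 6.97 in MES and 4.18 and 3.97 in CP, with no peak in CM. Both CP libraries lay below the hESC and MES libraries, with a difference of −0.66 ± 0.25 between CP and MES (adjusted p = 0.097). The difference between CM and hESC was −1.04 ± 0.25 by fold (adjusted p = 0.0094) and −1.58 ± 0.30 by pileup (adjusted p = 0.0013), and the call by fold was lost without hESC replicate 1 or CM replicate 1 (adjusted p up to 0.060). The promoter of the neighbouring CLPTM1L had a peak in all 8 libraries, with folds between 5.13 and 8.10.

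The 1 region with a peak in both CM libraries and in neither hESC library lay in an intron of LIN28B, 39.3 kb after the start at chr6:104996116-104996645. It had folds of 4.13 and 7.07 in CM and 4.46 in MES replicate 2 and no peak in the other 5 libraries, so it was tested only through its CM peaks. It was higher in CM than in hESC by 1.24 ± 0.29 (adjusted p = 0.0088) and than in CP by 1.25 ± 0.29 (adjusted p = 0.022), and by pileup than in hESC by 1.05 ± 0.25 (adjusted p = 0.0056). By fold the call against hESC was lost without hESC replicate 2 (adjusted p = 0.056), and that against CP without either CP library or CM replicate 2 (up to 0.098). Another intronic region, 67.8 kb after the start at chr6:105024755-105025096, had folds of 4.84 and 4.81 in hESC and no peak in any of the other 6 libraries. The difference from hESC was −1.00 ± 0.17 in MES (adjusted p = 0.0020) and −0.72 ± 0.17 in CM (adjusted p = 0.0084), but by pileup the difference for CM was −0.22 ± 0.19 (adjusted p = 0.39). These differences rest on entered values for MES and CM, in a region tested only through its hESC peaks. The CM call by fold was lost without either CM library (adjusted p up to 0.099).

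The 200 bases around the summits of 2 of these regions are given. The first is the LIN28B region with peaks in both CM libraries and neither hESC library, the second the TERT region without a CM peak. Gained and lost refer to CM against hESC only, as the LIN28B region also had a peak in MES replicate 2 and none in CP. Both stretches are on the plus strand of GRCh38, with capitals as for the promoters. They lie at chr6:104996307-104996506 and chr5:1316321-1316520.
LIN28B intron, gained in CM: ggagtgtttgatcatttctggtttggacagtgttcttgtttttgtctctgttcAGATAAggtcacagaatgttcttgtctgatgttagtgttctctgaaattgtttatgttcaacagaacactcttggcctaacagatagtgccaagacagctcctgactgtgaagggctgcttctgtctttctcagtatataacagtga
TERT upstream, lost in CM: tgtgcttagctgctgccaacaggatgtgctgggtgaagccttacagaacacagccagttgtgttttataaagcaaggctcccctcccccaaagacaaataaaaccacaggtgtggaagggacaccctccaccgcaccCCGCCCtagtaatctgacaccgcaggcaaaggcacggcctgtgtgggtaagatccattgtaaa

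The LIN28B region held a GATA motif 54 bases into its stretch, and 11.3% of all 285909 regions held one in the same window. The TERT region held an SP1 box, found in 11.9% of regions. Over the 112 regions a GATA motif was found in 9.82%, a SOX motif in 13.4% (14.6% of all regions), an SP1 box in 17% and a CTCF motif in 7.14% (4.37%). E-boxes were found in 9.82% of the 112 regions and in 3.37% of all regions, and octamers in 2.68%.

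The DNMT3B window held 11 and 15 regions with a peak in hESC, 10 and 14 in MES and 10 and 11 in CP, then 11 and 7 in CM. These were 50% and 68.2% of its 22 regions in hESC and 50% and 31.8% in CM. Of all merged regions 34.5% and 53.1% had a peak in the hESC libraries and 31.2% and 18.6% in those of CM. A peak in all 8 libraries was found at 5 of the 22 regions, where 9.83% of all regions had one. Of 13 tested regions 2 were lower and 1 was higher in MES than in hESC by fold, where 10.8% and 12.5% of all tested regions were. By pileup 4 were lower in CM than in hESC. Of all tested regions 15.3% were lower in CM by pileup and 22.4% by fold. By fold 1 was lower in CM, at the promoter of the neighbouring gene EFCAB8, with folds of 5.24 and 5.93 in hESC, 3.86 in CP replicate 1 and no other peak, and the call was lost without hESC replicate 2 or either CM library (adjusted p up to 0.15). The EFCAB8 region was tested only through its hESC peaks, with entered values for CM. An intronic region 2.4 kb after the DNMT3B start (chr20:32764626-32764997), chosen after its values were seen, differed between the measures. Its pileup was 23.9 and 20.8 in hESC, 20.4 and 24.4 in MES and 15.8 and 20.3 in CP, with no peak in CM, and the difference was −0.47 by fold (adjusted p = 0.13). By pileup it was −2.15, which rests on the values entered for both CM libraries, while the local background at the nearby promoter was 3.37 and 3.41 times the lowest of the library in CM. A peak in the last DNMT3B exons, 45.5 kb after the start, was called in all 8 libraries with folds between 4.54 and 7.41.

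The L1TD1 window had 6 and 8 regions with a peak in hESC and 5 and 1 in CM. The 5 in CM replicate 1 were 33.3% of its 15 regions, where 31.2% of all regions had a peak in that library, and the 1 in CM replicate 2 was 6.67%, where 18.6% had. Within KANK4, its neighbour, an intronic region 55.7 kb after the L1TD1 start had folds of 5.45 and 4.39 in hESC and no peak in the other 6 libraries. A second one, 47.1 kb after the start (chr1:62241639-62242145), had no peak in hESC, folds of 4.62 and 7.23 in MES, 6.57 and 10.6 in CP and 3.61 in CM replicate 1. It was higher in MES than in hESC by 1.12 ± 0.28 (adjusted p = 0.013), where 12.5% of all tested regions were higher, and the difference between CM and CP was −1.14 ± 0.28 (adjusted p = 0.031), where 4.33% were lower. The first call was lost without hESC replicate 2 or MES replicate 2 (adjusted p up to 0.11), and the second without CP replicate 2 or either CM library (up to 0.22). These KANK4 regions thus differed from the L1TD1 promoter, which had a peak in every hESC, MES and CP library.

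At LIN28A, the promoters of the neighbouring genes DHDDS and HMGN2 had peaks in all 8 libraries, with folds of 10.3 to 13.6 and 5.44 to 6.77. A region between genes at −24.6 kb from the start (chr1:26386008-26386401) had folds of 6.58 and 6.80 in hESC, 5.42 in MES replicate 2 and 6.57 in CP replicate 2 and no peak in the other 4 libraries. CM differed from hESC there by −1.19 ± 0.39 (adjusted p = 0.039), a call lost without either hESC or either CM library (adjusted p up to 0.16). A region over DHDDS exons 36.9 kb after the start had folds of 5.76 and 6.12 in hESC and no other peak. MES differed from hESC there by −1.30 ± 0.19 (adjusted p = 0.0018), with entered values for MES. This region and the one at −24.6 kb were tested only through their hESC peaks. At the far ends of the LIN28B window, a region in LIN28B-AS1 lay at −48.8 kb from the start. Its folds were 5.08 and 5.05 in hESC and 3.42 in CP replicate 1, with no other peak. The LIN28B-AS1 region was thus tested only through its hESC peaks. A region in an intron of BVES 159.2 kb after the start had folds of 4.84 and 6.94 in hESC. It also had 4.52 and 5.58 in MES and 4.27 in CP replicate 1. Neither region had a peak in CM, so the CM values are entered ones. Both were lower in CM than in hESC by fold, with differences of −0.79 ± 0.23 (adjusted p = 0.022) and −0.99 ± 0.33 (adjusted p = 0.043), but neither call held without one of the CM libraries, nor the one in BVES without hESC replicate 2 (adjusted p up to 0.24). By pileup neither passed the test, with −0.31 (adjusted p = 0.27) and −0.49 (adjusted p = 0.24).

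Fewer regions of the 7 windows changed between neighbouring stages. From hESC to MES 7 regions were lower, or 11.9% against 10.8% of all tested regions, and 5 were higher, or 8.47% against 12.5%. From MES to CP 1 was lower (the DPPA2 promoter), where 12.7% of all tested regions were, and 3 were higher, where 4.32% were. From CP to CM 5 were lower, where 4.33% were, and 1 was higher, where 3.42% were. The 3 regions higher in CP were the one before LIN28A described above, a region in CLPTM1L and a region 35.3 kb after the L1TD1 start with folds of 3.75 and 8.24 in CP and 5.06 in CM replicate 2. The regions in CLPTM1L and after L1TD1 were tested only through their CP peaks, with entered values for MES. The comparisons share libraries, so their counts are not independent of each other. With each library left out in turn, 5 of the 15 calls between CM and hESC, 6 of the 12 between MES and hESC, 1 of the 6 between CM and CP and none of the 4 between CP and MES were kept every time.

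Partner genes of the 7 were compared at their own promoters between CM and hESC, by fold with limma and by pileup. All 9 genes of let-7 and microRNA processing had a promoter peak in every library, and none changed by fold, with a median difference of 0.19 and 1 gene at an unadjusted p below 0.05. By pileup 3 were higher in CM, where 13.1% of all tested promoters were, among them DICER1, which cuts precursors into microRNAs and differed by 0.32 ± 0.13 by fold (adjusted p = 0.087) and by 0.52 by pileup (adjusted p = 0.010). Of 9 genes of DNA methylation 7 were tested, and none changed by either measure or at an unadjusted p below 0.05. The maintenance methyltransferase gene DNMT1 had folds of 9.20 and 9.23 in hESC and 9.22 and 11.5 in CM.

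Of 13 telomere genes 12 were tested, and none changed by fold, with 1 higher at an unadjusted p below 0.05. By pileup 1 was lower and 1 higher, where 6.95% and 13.1% of all tested promoters were. TERC, the RNA template of telomerase, had folds of 6.39 and 6.22 in hESC and 3.92 and 7.02 in CM, with a difference of −0.61 by pileup (adjusted p = 0.036), and the component DKC1 had 12.4 and 9.94 in hESC and 8.51 and 9.22 in CM. Of 9 other stem cell genes 7 were tested and 1 was lower by fold, where 3.48% of promoters were. This was the co-receptor gene TDGF1, with folds of 4.86 and 4.93 in hESC and no peak in CM (−0.74 ± 0.24, adjusted p = 0.037). By pileup 5 of these 7 were lower, where 6.95% of promoters were, and 1 was higher, where 13.1% were. TDGF1 differed by −1.88 (adjusted p = 0.00016) and ZFP42, a zinc finger gene used as a stem cell marker, by −1.11 (adjusted p = 0.0014), while ZFP42 differed by −0.09 by fold (adjusted p = 0.76). Of the 5 lower by pileup, TDGF1 and ESRG had no CM peak, and UTF1 had one in CM replicate 1 only. Their differences by pileup thus rest wholly or in part on entered values. ZFP42 and PRDM14 had a peak in all 8 libraries. DPPA3 and ZSCAN4 had no promoter region, and DPPA5 had a peak in hESC replicate 2 and CP replicate 2 only.

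The promoters whose folds followed each of the 7 most closely over the 8 libraries were sought among 13892 promoters, as a description and with 8 points that share libraries. DPPA2 was most like OR14A16 (Pearson r = 0.992), with folds of 9.69 and 10.3 in hESC and no peak in CM, and PIK3R5 (0.986). DPPA4 was most like CDH10 (0.977) and NDUFA4 (0.977), and L1TD1 like THOC2 (0.991) and CXCL6 (0.988). LIN28A was most like SALL1 (0.986) and JADE2 (0.982), LIN28B like PCSK1N (0.971) and THBS4 (0.96), DNMT3B like MAST2 (0.989) and USP53 (0.983), and TERT like HAUS7 (0.96) and CNIH2 (0.941).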

How the data were processed

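The deposited files were 8 peak lists, 1 per ATAC-seq library. The authors aligned the read pairs to hg38 (GRCh38) with BWA-MEM (the submitters' processing notes give BWA 0.7.13), retained primary mappings of quality over 30 and discarded duplicates (Picard). MACS2 2.1.0 was run per library with no control, at a q-value of 0.01, with reads shifted by 100 bp and extended to 200 bp so that tags are centred on the cut site. In the lists as the authors deposited them, the value of a peak is the fold, a ratio of pileup to local background, beside the −log10 p and the −log10 q. The display score was not used. Read totals per library are not given in the sources used here, so precision is given by the pileup at the summit.

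Peaks on chromosomes 1 to 22 and X were merged over libraries, and a region took the highest fold of each library. Pileup and background were recovered from fold and −log10 p for 100% of peaks (tolerance 0.001). Regions called in both libraries of a stage were tested with limma 3.58.1 (trend, all 8 libraries, stage as the factor) on log2 folds scaled by the median ratio over the 28115 regions called in all libraries, which shifted libraries by −0.18 to 0.22. Adjusted p-values are Benjamini-Hochberg over all tested regions, two-sided, with a threshold of 0.05. On simulated data for CM against hESC (131956 regions), 35% of changes of 1 and 96% of changes of 2 on the log2 scale were recovered. The simulation changed far fewer regions than were called in the data and held no uncalled regions. These shares therefore do not give the recovery in the data. Where leaving out a library left 1 at a stage, it was assumed to vary like the other stages. With 2 replicates, p-values measure the spread between these libraries. For each gene, the named regions are the promoter, the 2 others of highest −log10 q and up to 4 of the largest changes between CM and hESC, and further regions are named where a count of a few needs them. The members, lists and rules were chosen with earlier results of these data known. Annotation was GENCODE 44, and motifs were sought in 200 bp. Alternatives were scaling, the value of uncalled regions, filters, a −log10 q of 5, lists of equal length, trimmed peaks, the spread estimate, a replicate block, windows of 10 kb, any annotated start and each library left out. The tools were R 4.3.3, Python 3.11.15, pandas 2.3.3 and pysam 0.24.0.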

Additional observations from a re-analysis of the deposited data

How the results depend on the processing

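The DPPA2 and DPPA4 promoters stayed lower in CM than in hESC under all 20 alternatives that gave a value, with differences of −3.23 to −1.71 and of −2.67 to −1.15. The L1TD1 call by fold was lost in 11 of its 20. Of the counts, 13 regions lower in CM became 6 with no filter and 0 of 14 called in all 8 libraries (4 of these 14 had an unadjusted p below 0.05), and 5 to 15 with 1 library left out, or 12 and 17 by pileup. The 2 regions higher became 1 with uncalled regions at fold 1, and 0 for regions called in all libraries or lists of equal length. The 12 changed in MES became 7, 0 and 6 in those settings. The 4 changed in CP against MES became 1 without scaling, 2 at fold 1, 1 at the lowest fold, 0 with no filter, 0 for regions called in all libraries, 2 with lists of equal length, 0 without the trend, and 0 to 7 with 1 library left out. The 6 changed in CM against CP became 3 with no filter, 0 for regions called in all libraries and 2 to 4 with 1 library left out. The 24 regions with hESC peaks and no CM peak became 10 with lists of equal length, 10 within 10 kb, and 26 to 42 with 1 library left out.

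Signs turned for differences that had not passed the test. By pileup, with all libraries, without CM replicate 1 and without CM replicate 2, these were the LIN28A promoter (−0.077, −0.015 and −0.065), the DNMT3B promoter (−0.12, −0.13 and −0.039) and LIN28B −16.5 kb (−0.20, −0.14 and −0.18). The last was −0.035 without scaling and −1.28 with trimmed peaks. With lists of equal length they were LIN28B +81.3 kb (0.27) and L1TD1 +47.1 kb (−0.13), and with trimmed peaks DPPA4 −18.3 kb (0.30). With any annotated start as promoter the LIN28B value was 0.090. MAPRE1, in the DNMT3B window, ran from −0.14 to 0.046 with 1 library left out. By pileup without CM replicate 2 it was 0.017 and CLPTM1L, in the TERT window, 0.0071, and without CM replicate 1 LIN28B +81.3 kb was 0.17. At LIN28B −16.5 kb the hESC summits lay at −16539 and −16549 bp and the CM summits at −15609 and −15566 bp. Trimming puts these in separate regions, so the −1.28 is from the values entered for CM. At DPPA4 −18.3 kb the 0.30 includes a value entered for hESC replicate 2, whose summit lay at −18264 bp. The cause of the other turns in sign was not tested. The replicate block changed 13 lower regions to 14. Deviations of same-numbered libraries correlated between −0.05 and 0.09 over pairs of stages for all tested regions, and between −0.12 and 0.19 for regions called in all libraries, with 3 of 6 pairs over 0.1, so the numbers were not taken to pair the libraries. Values by pileup were chosen after seeing the data. A peak list shows what passed the caller's threshold in that library, and an uncalled region can still hold reads. CM replicate 2 had the shortest list.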
